A study of Rattus norvegicus with 56 samples.

Results

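The miR-181 family was followed in rat hippocampus after traumatic brain injury (TBI). Its members were chosen by name. They are the 4 rows rno-miR-181a-5p, rno-miR-181b-5p, rno-miR-181c-5p and rno-miR-181d-5p out of the 367 mature miRNAs in the deposited table, and all 4 passed the filter on low counts in every comparison. The study used 56 rats, with 28 TBI rats and 28 rats that had sham surgery. Each of the 7 intervals (24 h, 2 weeks, 1 month, 2 months, 3 months, 6 months and 1 year) held 4 TBI and 4 sham rats, each rat giving 1 small RNA library of hippocampal tissue. The study's text names the injury as fluid percussion, a fluid pressure pulse delivered to the brain surface. The sham rats of each interval are its controls. Strain, sex, age and the side of the brain taken are not given in the sources used here.

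MicroRNAs are short RNAs that, loaded into an Argonaute protein, pair through bases near their 5′ end (the seed) with messenger RNAs and lower their translation and stability. The miR-181 family is abundant in brain and in developing lymphocytes. It is known for setting the sensitivity of T cell receptor signalling, and in the nervous system for acting on transcripts of chaperones, apoptosis regulators and glutamate receptor subunits. Mammals carry it as bicistronic genes, in which an a member lies beside a b member, and a c member lies beside a d member.

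The mature sequences of RefSeq (GRCr8) are shown because the family divides in one way by sequence and in another way by gene. All 4 members were matched, and the capitals mark the seed, bases 2 to 8 counted from the 5′ end.
miR-181a-5p: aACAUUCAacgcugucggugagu
miR-181b-5p: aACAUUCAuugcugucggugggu
miR-181c-5p: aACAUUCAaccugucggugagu
miR-181d-5p: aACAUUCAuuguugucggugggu
The seed was identical in the 4 members, and no other of the 693 mature miRNA names in the RefSeq table had it. By sequence, miR-181a-5p pairs with miR-181c-5p, which is the same string without base 11 (22 bases against 23). miR-181b-5p pairs with miR-181d-5p, from which it differs by the single substitution C12U. Across these pairs the distance was larger, with 3 substitutions between miR-181a-5p and miR-181b-5p (A9U, C10U and A21G) and 5 differences between miR-181c-5p and miR-181d-5p.

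By gene the pairing is the other one. Mir181a-1 and Mir181b1 lie on chromosome 13, where the mature a and b sequences (chr13:52037081-52037103 and chr13:52037263-52037285, plus strand, GRCr8) start 182 bases apart. A further copy of each, Mir181a2 and Mir181b2, lies on chromosome 3 (miR-181a-5p at chr3:43025601-43025623, plus strand) within the gene Nr6a1, so a read of miR-181a-5p or miR-181b-5p cannot be assigned to one locus. Mir181c and Mir181d lie on chromosome 19, where the mature sequences (chr19:40888314-40888335 and chr19:40888484-40888506, plus strand) start 170 bases apart, near the Mir23a, Mir27a and Mir24-2 genes on one side and Nanos3 on the other. Since members differ by as little as 1 base, reads with a sequencing error or a trimmed end could be counted for a relative, and how reads that fit several members were divided is not given in the sources used here.

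Libraries held between 69628 and 12468979 counts in total, with a median of 5332930. The shallowest library, TBI 2 months replicate 1, is the only one under 1000000 counts. It held 12 reads of miR-181c-5p, or 138 CPM (counts per 1000000, scaled to the library size after TMM normalization over all 56 libraries), with an exact 95% Poisson interval of 71.2 to 241 CPM that reflects counting error alone, as PCR copies of a molecule are not independent reads of it. The 5 brain markers fixed for the tissue check (miR-9a-5p, miR-124-5p, miR-128-1-5p, miR-129-5p and miR-132-5p) summed to 129694 to 300066 CPM per library, while miR-122-5p, a liver marker, lay between 0 and 21.0 CPM and 3 muscle markers summed to at most 11.5 CPM. The choroid plexus markers (miR-204-5p, miR-211-5p and miR-448-5p) summed to 1136 to 20830 CPM, with the highest values in sham 3 months and sham 1 year libraries. All markers used are -5p forms. How well these mark a tissue or cell type, beside the -3p forms of the same genes, was not tested.

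The members differed widely in level. miR-181a-5p was the most abundant, at 21304 ± 2516 CPM (SD, n = 56) and rank 12 of the 244 miRNAs tested over all libraries. miR-181b-5p followed at 7789 ± 1078 CPM (rank 25), then miR-181d-5p at 958 ± 125 CPM (rank 61) and miR-181c-5p at 169 ± 33.7 CPM (rank 113). The 4 ranges did not touch, running from 16642 to 26156 CPM for a, from 5860 to 10417 for b, from 714 to 1350 for d and from 110 to 232 for c. CPM compares these members directly, since each is 22 or 23 bases long and a read spans the whole molecule, although ligation and counting can favour one sequence over another. Of the 367 miRNAs in the deposited table, 309 have names ending in -5p and 5 have names ending in -3p. Shares and ranks are thus among the miRNAs listed there, which include few -3p forms. The family took 2.24% to 4.05% of all counts in a library. Within it, miR-181a-5p held on average 70.5% of the reads, miR-181b-5p 25.8%, miR-181d-5p 3.21% and miR-181c-5p 0.565%. The order was thus a, b, d, c in every library, and the linear ratio of a plus b to c plus d averaged 26.3 (16.04 to 38.77).

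**Figure D1:**
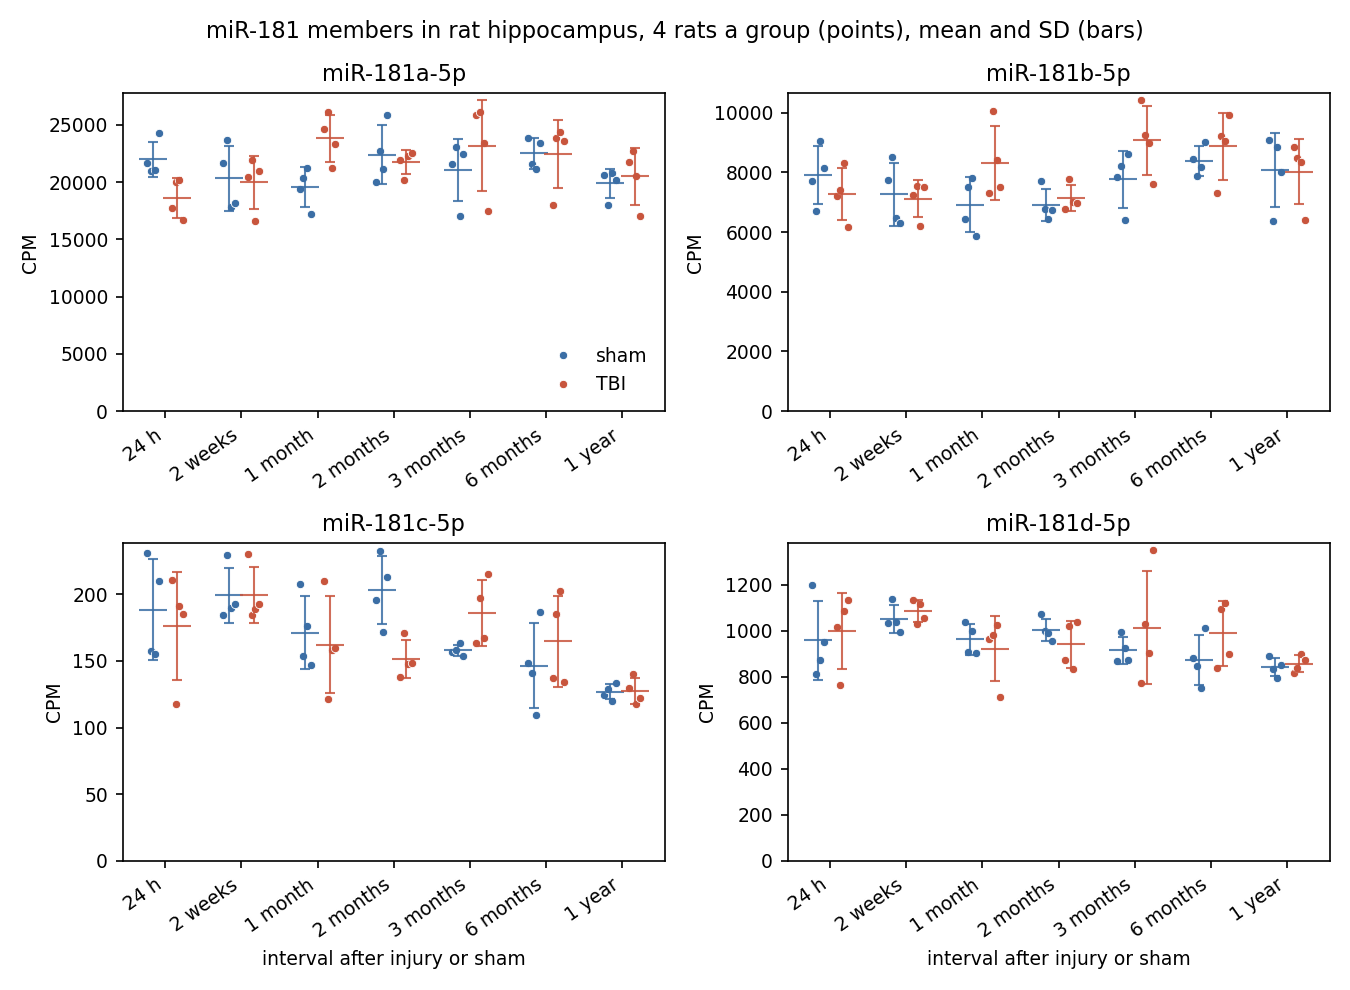
Level of each miR-181 member in CPM (linear axis from 0, a different scale in each panel) against the interval, with sham rats in blue and TBI rats in red. Points are single rats, horizontal bars with whiskers are the mean ± SD of 4 rats, and the miR-181c-5p panel shows its lowest group means at 1 year in both groups (single rats at 118 to 141 CPM).

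Whether injury changed the members was tested at each interval with edgeR's quasi-likelihood test and Benjamini-Hochberg adjustment over all miRNAs tested (220 to 240). None of the 28 comparisons (4 members at 7 intervals) had an adjusted p under 0.05, and the adjusted p-values lay between 0.280 and 0.991. An unadjusted edgeR p under 0.05 was reached in 2 of the 28 (miR-181c-5p at 2 months and miR-181b-5p at 3 months), and the tests of DESeq2 called 0 of the 28. Over all miRNAs, the share with an adjusted p under 0.05 was 1.72% at 24 h, 0.417% at 1 month and 0% at 2 weeks, 2 months, 3 months, 6 months and 1 year, so the members' 0 of 4 stood beside backgrounds that were themselves near 0. The log2 fold change (TBI minus sham) was positive in 15 of the 28 comparisons and negative in 13, and the largest in size was 0.43.

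For miR-181a-5p, the broadly expressed and most abundant member, the 2 groups lay apart at 24 h and at 1 month, in opposite directions. At 24 h it was at 17732, 20039, 20187 and 16663 CPM in the TBI rats and at 21688, 20945, 21030 and 24281 CPM in the sham rats. Each TBI rat was below each sham rat, and the log2 fold change was -0.23 (SE 0.11, edgeR adjusted p = 0.902). At 1 month the TBI rats were at 24616, 26156, 21237 and 23309 CPM and the sham rats at 19445, 20387, 21209 and 17210 CPM. The lowest TBI rat and the highest sham rat lay close together here, and the groups overlapped when the libraries were scaled within the interval alone. The log2 fold change at 1 month was 0.34 (SE 0.16, edgeR adjusted p = 0.280), the lowest adjusted p of the 28. At the other 5 intervals the groups overlapped, with log2 fold changes from -0.06 to 0.18.

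miR-181b-5p, which shares its genes with miR-181a-5p, overlapped between the groups at all 7 intervals. Its log2 fold change was largest at 1 month, at 0.32 (SE 0.18, edgeR adjusted p = 0.375), where TBI rats ranged from 7298 to 10044 CPM and sham rats from 5860 to 7828 CPM. With single libraries left out, the 1 month value ran from 0.17 (without TBI 1 month replicate 2) to 0.39. At 3 months it was 0.26 (SE 0.11, edgeR adjusted p = 0.533) and 0.16 without TBI 3 months replicate 1, with TBI rats between 7627 and 10417 CPM and sham rats between 6401 and 8605 CPM. At 24 h it was -0.12 (SE 0.14, and -0.04 without TBI 24 h replicate 4), on the same side of 0 as miR-181a-5p.

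For miR-181c-5p, the member with fewest reads, the groups lay apart at 2 months and at 3 months, again in opposite directions. At 2 months it was at 138, 171, 148 and 149 CPM in the TBI rats and at 195, 232, 172 and 213 CPM in the sham rats. The TBI rats were all lower, with a log2 fold change of -0.43 (SE 0.17, edgeR adjusted p = 0.549), and of -0.42 without the shallow library, whose value is the 138. At 3 months the TBI rats were at 163.81, 198, 167 and 215 CPM and the sham rats at 157, 159, 163.77 and 154 CPM. The TBI rats were all higher, although the lowest of them and the highest sham rat were almost level, and the log2 fold change was 0.29 (SE 0.13, edgeR adjusted p = 0.533), and 0.17 without TBI 3 months replicate 4. The choroid plexus markers at 3 months summed to 2591 to 20830 CPM in the sham rats and to 3284 to 4138 CPM in the TBI rats. Their part in the 3 months values of the members was not tested. At the other 5 intervals the log2 fold change of miR-181c-5p lay between -0.09 and 0.16.

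miR-181d-5p, its neighbour on chromosome 19, overlapped between the groups at all 7 intervals. Its log2 fold change ran from -0.11 at 2 months (SE 0.15) to 0.20 at 3 months (SE 0.18). The 3 months value rests on a wide TBI group, at 771, 1031, 905 and 1350 CPM, against 870 to 994 CPM in the sham rats, and it was -0.01 without TBI 3 months replicate 4.

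In all, the groups did not overlap in 4 of the 28 comparisons. Each of these 4 reached p = 0.0286 in the two-sided exact permutation test of log2 CPM, the smallest value that 4 against 4 rats allow, before any adjustment. Over all miRNAs and intervals, groups lay apart in 5.11% of comparisons. In the direction each member took, that share was 0.429% at 24 h (lower), 5.42% at 1 month (higher), 2.54% at 2 months (lower) and 2.73% at 3 months (higher). Each share includes the member itself. At 24 h the share was 1 of 233 miRNAs, and that 1 was miR-181a-5p.

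**Figure D2:**
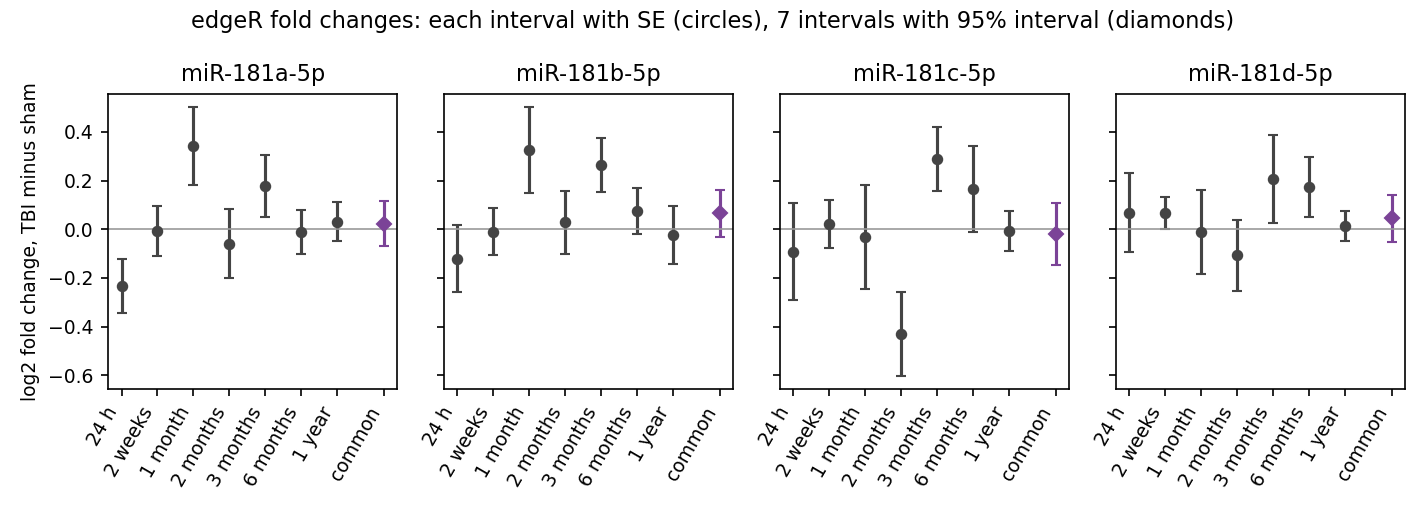
log2 fold change of TBI minus sham for each member from edgeR. Circles are the 7 intervals with SE as whiskers, and the diamond is the effect common to all intervals with its 95% interval, which spans 0 for each of the 4 members.

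A shift shared by all intervals was tested over the 56 libraries with the interval as a covariate. The common log2 fold change was 0.02 for miR-181a-5p (95% interval -0.07 to 0.12, edgeR adjusted p = 0.910) and 0.07 for miR-181b-5p (-0.03 to 0.16, adjusted p = 0.575). It was -0.02 for miR-181c-5p (-0.15 to 0.11, adjusted p = 0.944) and 0.04 for miR-181d-5p (-0.05 to 0.14, adjusted p = 0.756). The upper bound of the 4 intervals was at most 11.9% above sham, that of miR-181b-5p. None of the 4 was called, at an unadjusted p under 0.05 the count was also 0, and the likelihood ratio tests of edgeR and DESeq2 called 0, against 4.51% of all 244 miRNAs called. The difference of the TBI effect between intervals, tested with 6 interaction terms, gave edgeR adjusted p-values of 0.429, 0.608, 0.522 and 0.928 for a, b, c and d. That test called 2.87% of all miRNAs and 0 of the 4 members, and 0 of the 4 had an unadjusted p under 0.05 or were called by the likelihood ratio test of DESeq2. The opposite signs of miR-181a-5p at 24 h and 1 month, and of miR-181c-5p at 2 and 3 months, are thus not shown to differ. That test takes all intervals together, and these single contrasts were not tested by themselves.

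Other miRNAs did rise in the same fit. The lists used here hold -5p forms only, and the -3p forms of these genes were not examined. Of the 3 miRNAs beside Mir181c and Mir181d on chromosome 19, which are transcribed from the opposite strand, miR-23a-5p was too low to test and the other 2 rose. miR-27a-5p had a common log2 fold change of 0.42 (SE 0.09, edgeR adjusted p = 0.00207) and miR-24-2-5p one of 0.15 (SE 0.04, adjusted p = 0.0333). In the list of 7 immune and microglial miRNAs 5 rose by the quasi-likelihood test and 4 were called by the likelihood ratio test of edgeR or of DESeq2. Among the 5 was miR-155-5p, a regulator of inflammatory signalling, with a log2 fold change of 1.00 (SE 0.18). The study's text had already reported miR-155-5p as changed after TBI in these rats, together with miR-21-5p, miR-223-5p and miR-142-5p. All of these are in the list and among the 5. The list was chosen with earlier results of these data known. The count of 5 was thus largely fixed in advance and is not an independent comparison for the miR-181 members. In the list of neuron-enriched miRNAs 0 of the 9 tested were called by edgeR or by DESeq2, and 1 had an unadjusted p under 0.05. Over all 244 miRNAs the quasi-likelihood test called 4.51% in this fit, so 0 of 9 is near that share. The median log2 fold change of the neuron-enriched list was 0.01, beside -0.01 over all miRNAs and -0.02 to 0.07 for the miR-181 members. In whole tissue, a change in the number of cells that hold a miRNA and a change in its amount per cell cannot be told apart.

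The level across the 7 intervals in rats without injury was compared in the 28 sham libraries. miR-181c-5p differed between intervals (edgeR adjusted p = 0.00738, rank 25 of 240), and miR-181a-5p, miR-181b-5p and miR-181d-5p did not pass the threshold (adjusted p = 0.372, 0.259 and 0.126). The 1 member of 4 is close to the share over all miRNAs, of which 27.1% were called. With libraries scaled by total count alone, miR-181a-5p and miR-181d-5p were called as well (adjusted p = 0.0406 and 0.0225). In the sham rats miR-181c-5p averaged 203 ± 25.8 CPM (SD, n = 4) at 2 months, 199 ± 20.8 at 2 weeks, 188 ± 38.0 at 24 h and 171 ± 27.5 at 1 month. It averaged 158 ± 4.23 CPM at 3 months, 147 ± 31.8 at 6 months and 127 ± 5.74 at 1 year. Neighbours in this order overlapped at each step, while the 1 year rats, at 125, 129, 120 and 134 CPM, were all below the 24 h rats, at 231, 158, 155 and 210 CPM. The log2 difference of miR-181c-5p between 1 year and 24 h was -0.57 (SE 0.15) in sham rats, where the median over all miRNAs was 0.01.

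The same test in the 28 TBI libraries, added after the data were seen, gave edgeR adjusted p-values of 0.163, 0.0528, 0.0506 and 0.384 for a, b, c and d. It thus called 0 of the 4 members at the threshold of 0.05, against 25% of all miRNAs, with 2 members at an unadjusted p under 0.05 and the same 2, miR-181b-5p and miR-181c-5p, called by the likelihood ratio tests of edgeR and DESeq2. The mean of miR-181c-5p was lowest at 1 year here too, with rats at 130, 141, 118 and 122 CPM, and its log2 difference from 24 h was -0.46 (SE 0.18). The course of miR-181c-5p rests on the 1 year libraries, since without them the adjusted p was 0.0946 in sham rats and 0.524 in TBI rats. For miR-181d-5p, which passed the threshold in neither group, the log2 differences between 1 year and 24 h were -0.18 (SE 0.10) in sham and -0.22 (SE 0.16) in TBI rats, and whether c and d differ in this was not tested. The log2 ratio of d to c was highest at 1 year in both groups, at 2.73 ± 0.07 in sham rats and 2.75 ± 0.16 in TBI rats, against 2.35 ± 0.13 and 2.52 ± 0.18 at 24 h.

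At 1 year the choroid plexus markers summed to 2015 to 19364 CPM in the sham rats and to 1713 to 2581 CPM in the TBI rats, while miR-181c-5p lay at 120 to 134 CPM in the former and 118 to 141 CPM in the latter. The blood cell markers summed to 1149 to 1236 CPM in the 1 year sham rats and 1305 to 2460 CPM in the 24 h sham rats, and their part in the course was not tested. Interval, age and any handling or sequencing run shared by the rats of an interval cannot be told apart.

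miR-181a-5p, miR-181b-5p and miR-181d-5p also overlapped between neighbours at each step of their order over the intervals. In sham rats, miR-181a-5p ran from 19563 ± 1726 CPM at 1 month to 22520 ± 1364 at 6 months, miR-181b-5p from 6910 ± 548 CPM at 2 months to 8382 ± 495 at 6 months, and miR-181d-5p from 843 ± 40.6 CPM at 1 year to 1050 ± 61.3 at 2 weeks. In TBI rats miR-181a-5p was lowest at 24 h (18655 ± 1740 CPM) and highest at 1 month (23829 ± 2083 CPM), and miR-181b-5p was highest at 3 months (9075 ± 1146 CPM).

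The a and b members were then set against the c and d cluster through a ratio within each library, log2 of a plus b over c plus d with 0.5 counts added to each sum, which needs no scaling between libraries. This ratio was 4.69 ± 0.27 over the 56 libraries (4.003 to 5.277). At 24 h it was 4.47 ± 0.36 in TBI rats and 4.72 ± 0.24 in sham rats, a difference of -0.24. At 1 month it was 4.90 ± 0.23 in TBI rats and 4.54 ± 0.15 in sham rats, a difference of 0.35 and the largest of the 7 for the summed ratio. The TBI rats at 1 month were at 4.76, 5.04, 4.64 and 5.14 and the sham rats at 4.38, 4.71, 4.62 and 4.45, so that 1 sham rat was above the lowest TBI rat. At 2 weeks, 2 months, 3 months, 6 months and 1 year the differences were -0.06, 0.13, 0.02, -0.16 and 0.00. TBI and sham rats overlapped at all 7 intervals, and the mean of the 7 differences was 0.0053, with 4 above 0. The sums are mostly miR-181a-5p and miR-181d-5p. Of the 28 single ratios between the loci (a or b over c or d at each interval), 1 did not overlap, b to c at 2 months, where the log2 ratio ran from 5.51 to 5.57 in TBI rats and from 4.86 to 5.30 in sham rats, a difference of 0.46. These TBI rats include the shallow library, with 12 reads of miR-181c-5p, and the levels of miR-181c-5p at 2 months already lay apart by themselves. Levels of single miRNAs lay apart in 5.11% of comparisons, as given above, and the share over ratios of miRNAs was not computed. No test was made on these ratios, which are scores over the members.

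**Figure D3:**
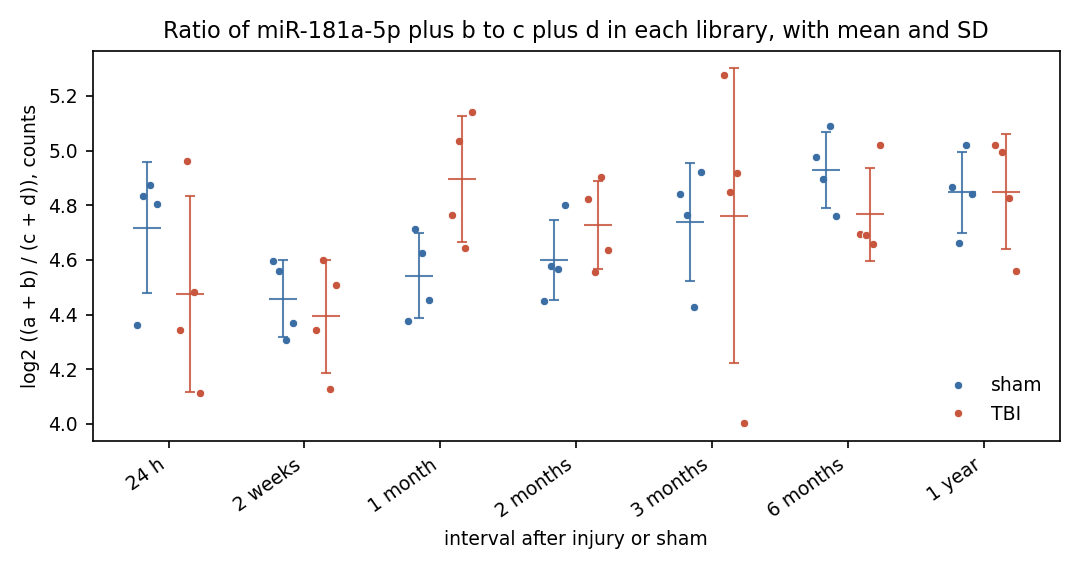
log2 ratio of miR-181a-5p plus b to miR-181c-5p plus d in each library against the interval, sham in blue and TBI in red, with mean ± SD of 4 rats. The groups overlap at each interval, and TBI 3 months spans the widest range (4.003 to 5.277).

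Between rats of the same group, the members of a locus pair rose and fell together, while pairs close in sequence passed no such test. The log2 CPM of each library was taken relative to the mean of its own group, in the 55 libraries with at least 1000000 counts, and the 6 pairs of members were correlated, a family of relations added after the data were seen. For miR-181a-5p and miR-181b-5p, Pearson's r was 0.73 (permutation p = 1e-05, the smallest that 100000 permutations within groups can give, adjusted 6e-05) and Spearman's rho was 0.68 (permutation p = 1e-05). For miR-181c-5p and miR-181d-5p, r was 0.65 (permutation p = 1e-04, adjusted 3e-04) and rho was 0.68 (permutation p = 2e-05). Without the 2 libraries farthest from the median, r was 0.71 for a and b and 0.64 for c and d. Values of this size were not limited to locus pairs. r was 0.79 for miR-181b-5p and miR-338-5p, and 0.74 for miR-181d-5p and miR-132-5p, whose partners here are genes on chromosome 10. For miR-181a-5p and miR-181c-5p the member of the same locus pair had the highest r. The share of all miRNA pairs with such an r was not computed.

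The 4 pairs of members from different loci had r between -0.13 and 0.10, with permutation p-values from 0.487 to 0.927 and rho between -0.06 and 0.13. Among them are the pairs closest in sequence. r was 0.10 for miR-181a-5p and miR-181c-5p, which differ by 1 missing base, and 0.01 for miR-181b-5p and miR-181d-5p, which differ by C12U. The difference between these coefficients and those of the locus pairs was not tested. Within the sham libraries (n = 28) r was 0.68 for a and b and 0.79 for c and d, and it lay between 0.13 and 0.36 for the pairs from different loci. Within the TBI libraries (n = 27) the corresponding values were 0.78, 0.59 and -0.30 to -0.08. All values of a library share its scaling factor, and with total counts as the scale r was 0.70 for a and b and 0.74 for c and d, beside 0.03 to 0.29 for the pairs from different loci.

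**Figure D4:**
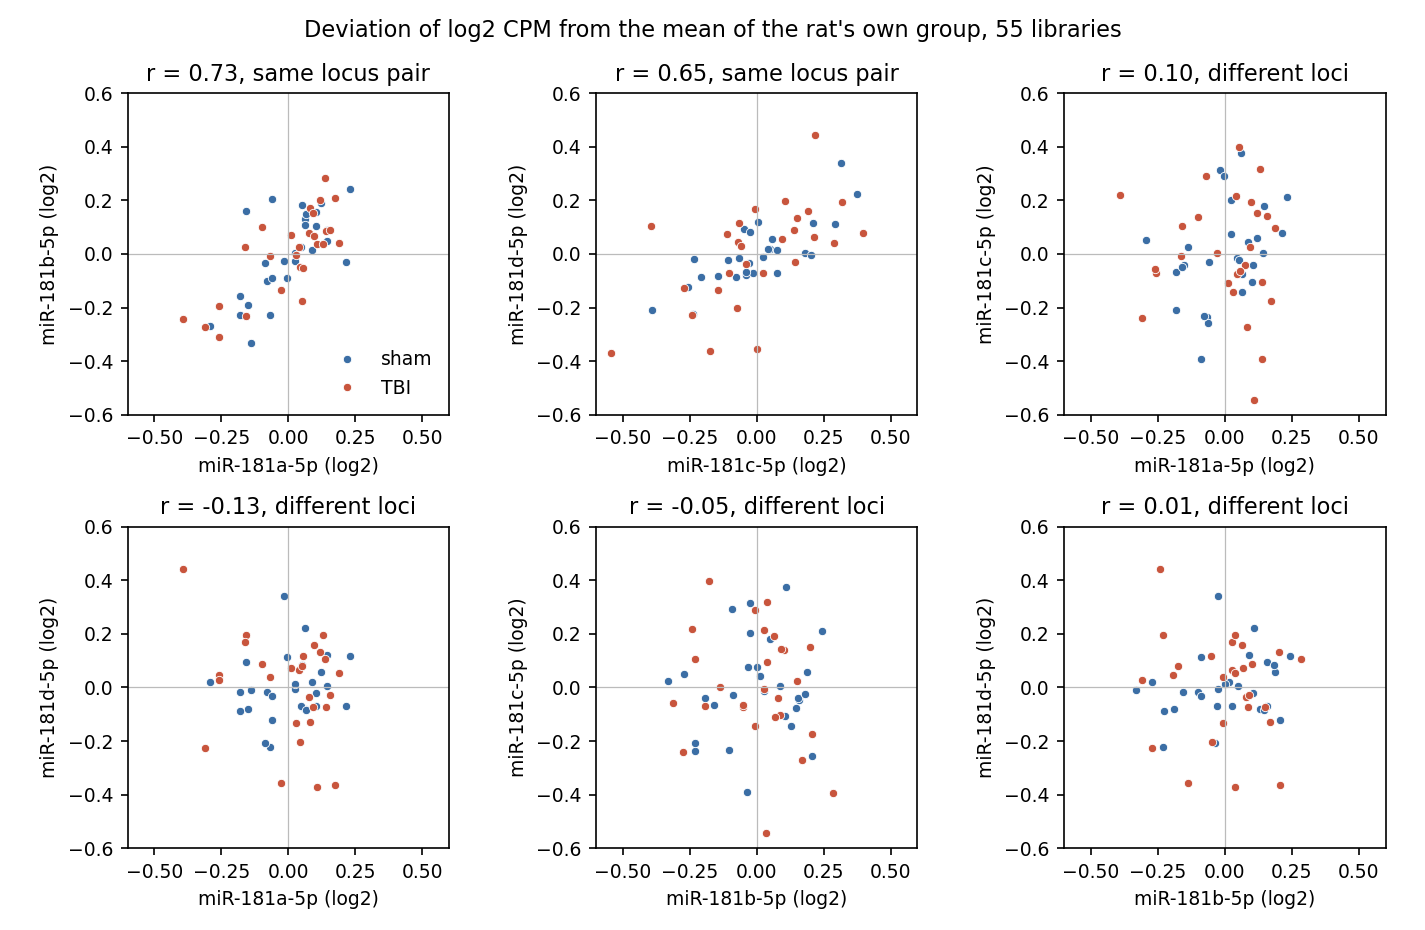
Each panel plots, for 1 pair of members, the deviation of log2 CPM of each of 55 libraries from the mean of its own group (sham in blue, TBI in red, log2 units on both axes). The first 2 panels are the locus pairs, with r of 0.73 and 0.65, and the other 4 are pairs from different loci, with r from -0.13 to 0.10.

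Ratios within a library, which need no scaling, give the same relations in another form and are not a separate observation. The SD within groups of the log2 ratio was 0.13 for a to b and 0.17 for d to c. It was 0.26 for a to c, 0.26 for a to d, 0.29 for b to c and 0.25 for b to d. The log2 CPM of the members themselves had an SD within groups of 0.16 for a, 0.18 for b, 0.23 for c and 0.18 for d. The rat with the lowest ratio of a plus b to c plus d, TBI 3 months replicate 4, had the lowest miR-181a-5p and miR-181b-5p of its group (17473 and 7627 CPM) and the highest miR-181c-5p and miR-181d-5p (215 and 1350 CPM). As the rat was picked by this ratio, such values were favoured by the choice and are given as a description only.

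The miRNAs whose pattern was most like each member, by Pearson's r of the same deviations over 55 libraries, are given as a description. For miR-181a-5p they were miR-181b-5p (0.73), miR-338-5p (0.64) and miR-30d-5p (0.52). For miR-181b-5p they were miR-338-5p (0.79), miR-181a-5p (0.73) and let-7i-5p (0.62). For miR-181c-5p they were miR-181d-5p (0.65), miR-132-5p (0.52) and miR-592 (0.51), and for miR-181d-5p they were miR-132-5p (0.74), miR-376b-5p (0.66) and miR-181c-5p (0.65). miR-338-5p is one of the 2 oligodendrocyte markers fixed for the tissue check, which summed to 1481 to 3315 CPM per library, and miR-132-5p, from a locus that neuronal activity induces, is one of the 5 brain markers. The part of these cells in the relations, and how well these -5p forms mark the cells, were not tested. The mature sequences of both (RefSeq, GRCr8) are shown because these miRNAs, the nearest in pattern outside the family, have other seeds.
miR-338-5p: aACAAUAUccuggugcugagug
miR-132-5p: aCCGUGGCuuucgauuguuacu
Of these 12 entries, 10 were still among the nearest 3 of their member when all 56 libraries were used, 11 with Spearman's rho and 8 with total counts as the scale, while the order within the 3 changed under the last 2 settings. miR-181b-5p stayed among the nearest 3 of miR-181a-5p, and miR-181d-5p among those of miR-181c-5p, under each of these settings.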

How the data were processed

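The authors extracted total RNA from hippocampus with Ribopure, made libraries with the NEBNext small RNA kit and sequenced them on a NextSeq550. They trimmed adapters and counted reads with miRDeep2 against miRBase, and per the labels base calls were converted with bcl2fastq 2.20.0.422. The deposited values are raw counts of 367 miRNAs in 56 libraries, with no normalization, and 0 columns were left out. Total counts per library (69628 to 12468979) set the precision. The study's text gives fewer reads mapped to miRNAs per sample than these totals, and whether a count stands for 1 read was not tested.

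Groups came from the treatment and time labels. Replicates are numbered in accession order. Titles carry a number after S, and no label says that it marks a pair, batch or day. No 2 libraries of a group had counts within sampling noise (in 84 pairs, chi-square divided by its degrees of freedom was at least 17.5). Pairs across groups were not part of this check. The titles of sham 3 months replicate 1 and sham 1 year replicate 1 begin with the same number, followed by A and B. No label explains this, and the study's text counts 56 rats. Tests used R 4.3.3 and edgeR 4.0.16 (filterByExpr, TMM, quasi-likelihood test, Benjamini-Hochberg, threshold 0.05), with TBI and sham compared within each interval's own 8 libraries. SE is the log2 fold change over the square root of F. CPM uses TMM factors of all 56 libraries, and log2 CPM a prior count of 2. DESeq2 1.42.0, other scalings, filters, a joint fit and leaving out each library were alternatives. Named miRNAs were the 4 members, the 3 most like each, and called members of the lists of neighbours, neuron-enriched and immune miRNAs. The members and lists were chosen with earlier results of these data known. The steps were tested on simulated counts, in which the changed miRNAs moved 2-fold up or down. These changes are larger than any seen in a member, so the power to detect the members' smaller changes was not tested. Figures used matplotlib. Sequences and gene neighbours are those of RefSeq (GRCr8).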

Additional observations from a re-analysis of the deposited data

Results flagged for a closer look

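In groups of 4, a library was listed where its gap to the nearest of the others over the group's range exceeded Dixon's 95% critical value. Of 70 sets of 4 values (4 members and the log2 ratio of a plus b to c plus d, in 14 groups), 3 met this, and chance gives about 3.5. miR-181a-5p in TBI 6 months replicate 1 was at 17996 CPM, against 23609 to 24407 CPM in the other 3 rats, and the log2 fold change at 6 months was 0.06 without it and -0.01 with it. The log2 ratio in sham 24 h replicate 1 was 4.36, against 4.80 to 4.87 in the others. The log2 ratio in TBI 6 months replicate 4 was 5.02, against 4.66 to 4.70 in the others.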

How the results depend on the processing

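The 28 member and interval comparisons gave 0 calls in all 452 refits (lowest adjusted p 0.0902, miR-181a-5p at 1 month), and the sign of the log2 fold change reversed in at least 1 refit in 14 of them. Scaling by total count alone gave 0.00835 and 0.00498 for miR-181a-5p and miR-181b-5p at 2 weeks, -0.0783 for miR-181b-5p at 2 months and 0.00155 for miR-181a-5p at 6 months. At least 10 counts in every library gave 0.0105 and 0.00768 for miR-181a-5p and miR-181b-5p at 2 weeks and -0.00351 for miR-181d-5p at 1 year. miR-181c-5p at 1 year was 0.00676 with no filter and 0.00679 in the joint fit. Leaving out single libraries gave, for c and d at 24 h, -0.20 to 0.0695 and -0.0364 to 0.19. For a, b and c at 2 weeks it gave -0.0586 to 0.0648, -0.0633 to 0.0455 and -0.0621 to 0.0669, and for c and d at 1 month -0.18 to 0.0537 and -0.14 to 0.0947. For a at 2 months it gave -0.0946 to 0.0205, for d at 3 months -0.0116 to 0.29 and for a at 6 months -0.0472 to 0.0643. For b, c and d at 1 year it gave -0.0943 to 0.0694, -0.0327 to 0.0430 and -0.0158 to 0.0549. With single libraries left out, the common effect of miR-181a-5p ran from -0.00973 (without TBI 1 month replicate 2) to 0.0306. The cause of these reversals was not tested.

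The common effect and the difference between intervals gave 0 called members in each of their 62 refits. In sham rats across the intervals, 1 member was called, 3 with total counts as the scale, and 1 to 2 with single libraries left out, where miR-181d-5p was added without sham 24 h replicate 1 (adjusted p = 0.0377). miR-181c-5p was called in each of these planned refits (adjusted p from 6.6e-04 to 0.0242). In TBI rats 0 members were called, 2 with the likelihood ratio test of edgeR and 2 with that of DESeq2. With single libraries left out, 0 to 2 were called there. The count became 2 without TBI 1 month replicate 1 or 2. It became 1 without TBI 24 h replicate 2, TBI 1 month replicate 3, TBI 2 months replicate 2, TBI 3 months replicate 1, or any TBI 6 months library. The mean difference of the ratio stayed between -0.02 and 0.04 without single libraries. The correlations of the 2 locus pairs kept their sign and an unadjusted permutation p under 0.05 in the settings where one was computed, 5 for each pair. Within an interval, sham and TBI titles share a number after S only at 1 year, in 4 pairs. With this number as a replicate block, added after the data were seen, 0 miRNAs were called, as without it, and the log2 fold changes of a, b, c and d were 0.0270, -0.0206, -0.00764 and 0.0126. The deviations of same-numbered rats correlated over miRNAs at 0.114, 0.0284, 0.412 and 0.104, and 4 of the 8 libraries correlated best with their own number. Whether same-numbered rats share more than the number was not tested, and the main comparison took them as unpaired. No paired analysis was possible at the other intervals because their sham and TBI titles share no number. There each number is carried by 2 libraries of the same group. The tests and the permutations within groups did not take this split into account. Depth limits miR-181c-5p most, at 12 to 2866 reads per library.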
